A study of Rattus norvegicus with 10 samples.

Results

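The genes described here are the 150 with the highest array signal in the hypothalamus of weaning-stage rats, out of 14217 genes named by the probe sets of the array. They were chosen by measured values: probe sets naming a single gene were ranked by their mean log2 signal over all 10 rats, the highest probe set stood for its gene, Pmch, Avp, Oxt, Cartpt, Hcrt, Ttr and Ptgds were dropped, and the 150 highest genes were kept. The level of these members and their place in the ranking are therefore a description and were not tested. The diet comparison played no part in the choice and was tested.

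Total RNA of the hypothalamus was read on 1 Rat Genome array per animal in 10 male Wistar rats. All had been given powder for 2 days at 3 weeks of age, after which 5 rats received solid feed (chow, C group) and 5 rats stayed on powdered feed (powder, P group) for 8 days, so that every rat had eaten powder first and the groups differed in the texture of the feed. The labels give an age of 4 weeks for all of them, and no allele or agent differed between the groups. The samples are whole blocks of tissue, in which fewer cells of a type and less RNA per cell cannot be told apart.

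A transcript with a high signal in brain tissue usually belongs to 1 of a few kinds. Some encode the machinery that every cell runs at all times, such as ribosomes, respiratory chain enzymes and the cytoskeleton. Others are made in large amounts by a single cell type: oligodendrocytes wrap axons in myelin, whose proteins they produce in bulk, astrocytes secrete lipid carriers and take up ions and water, and neurons make the proteins of vesicles and growth cones.

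The means of the 150 members lay between 11.91 and 13.90 on the log2 scale, with a median of 12.28, while the median of all 31042 probe sets was 7.37. The last genes inside the limit were Atp5pb at 11.92, Atp6v0c at 11.91 and Impact at 11.91. The first outside were Akr1a1 (11.91), Maged1 (11.90) and Tpi1 (11.90), so the limit cut through a dense range of signals. Of the dropped hypothalamic peptide genes, Pmch (12.97) would have ranked 10 and entered the list. Avp (11.89) would have ranked 160, Cartpt (11.14) 458, Hcrt (10.74) 770 and Oxt (10.42) 1074. All 5 of these genes, which mark the hypothalamus, lay above the median of all probe sets.

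Signal is not the same as abundance. Each probe set has its own binding strength, and 84 further probe sets name 54 of the members. Their signals lay a median of 2.51 below that of the probe set that made the gene a member, with gaps from 0.06 to 7.21, and 50 of the 84 lay more than 2 below it. Apoe had the widest gap, with 12.93 on one probe set and 5.72 on the other. The members are accordingly described as genes of high signal, and their order is not read as an order of transcript numbers.

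**Figure D1:**
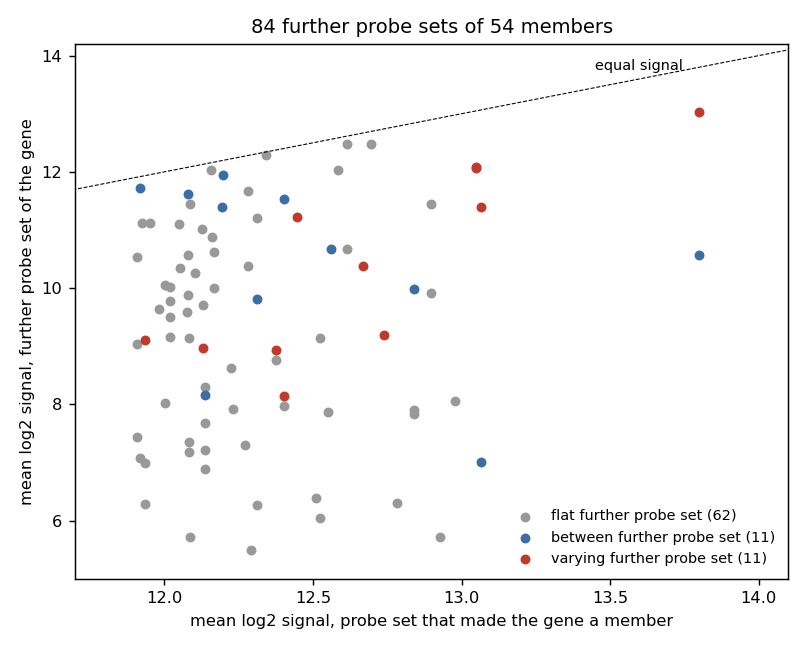
Mean log2 signal over 10 rats of each of 84 further probe sets (vertical axis) against that of the probe set that made the same gene a member (horizontal axis), colored by the spread of the further probe set over the rats; the dashed line marks equal signal. All points lie below the line, by 0.06 to 7.21 log2 units.

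Spread between rats split the members sharply. Of the 150 members, 120 (80%) were flat, with a standard deviation (SD) over the 10 rats below 0.001, 19 were in between, and 11 (7.33%) varied with an SD above 0.1. Over all probe sets 92.6% were flat and 4.48% varied, and over the highest probe set of every gene the shares were 90.4% and 5.52%. The next 150 genes by level held 123 flat and 5 varying genes. The summarization that made these values sets a probe set to an almost constant value where its probes share no variation across the arrays. A flat value is therefore not evidence that a gene was constant. The widest range over rats of any flat member was 0.0031, for Cd81.

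**Figure D2:**
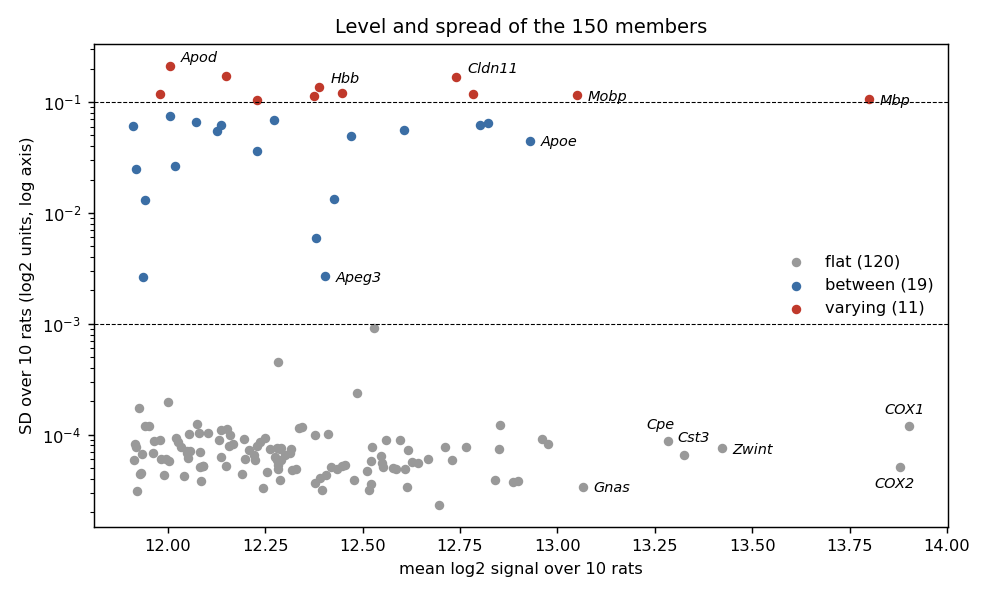
Mean log2 signal (horizontal axis) and SD over 10 rats (vertical axis, log scale) of the 150 members; dashed lines mark SDs of 0.001 and 0.1. The 120 flat members form a band far below the 11 varying ones, and Mbp is the varying member of highest mean.

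The highest signals came from the mitochondrial genome. COX1 and COX2, which encode subunits of cytochrome oxidase and are transcribed inside the mitochondrion, had means of 13.90 and 13.88, and COX1 stayed between 13.9037 and 13.9041 in the 10 rats. Next came Mbp, the basic protein of compact myelin, at 13.80. Zwint, which encodes a kinetochore component, stood at 13.42, and cell division was not examined. Cst3, which encodes the secreted protease inhibitor cystatin C, had 13.33. Cpe, the carboxypeptidase that trims peptide prohormones in secretory granules, had 13.28. Gnas, the alpha subunit of the stimulatory G protein, followed at 13.07, Mobp, another basic protein of myelin, at 13.05, Actg1, a cytoplasmic actin, at 12.98 and Tmsb4x, which binds actin monomers, at 12.96. Of these 10 genes, Mbp and Mobp varied and the other 8 were flat.

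Lists of genes by function covered 91 of the 150 members. The ribosomal proteins and the nuclear-encoded genes of oxidative phosphorylation were the largest groups, with 16 members each, out of 43 and 77 measured. With the mean over all probe sets of a gene in place of the highest, both counts became 25, and 106 of 150 members were shared. A further 37 of 80 listed ribosomal genes and 24 of 101 listed oxidative phosphorylation genes had no probe set naming them alone and could not enter. Probe sets above the limit that name such genes with related loci include Rpl9 (12.59), Rpl31 (12.53) and Cox7a2 (12.11). The equal counts of 16 therefore depend on this rule. The endosome, lysosome and amyloid precursor family held 11 of 35 and the tubulin, actin and growth cone genes 11 of 42. Glycolysis and energy buffering held 6 of 23, with Mdh1, the cytosolic malate dehydrogenase, at 12.61 and Aldoa, an aldolase, at 12.52. Synaptic vesicle and secretory granule genes held 7 of 40, led by Cpe and by Resp18, a protein of neuroendocrine secretory granules, at 12.61 with an SD of 0.06. Calmodulin and calcium sensors held 5 of 21, and iron and redox genes 4 of 28, led by Selenop, the selenium carrier, at 12.51 and the superoxide dismutase Sod1 at 12.38. Other groups were thinly represented: 1 of 43 ubiquitin and proteasome genes, 1 of 36 chaperones, 2 of 44 G proteins and small GTPases and 2 of 23 pumps. For chaperones, probe sets naming Hspa8 (13.18) or Hsp90aa1 (12.99) together with a related locus lay above the limit and could not enter. None of 23 other neuropeptides and none of 14 immediate early genes was a member, and their median levels were 8.76 and 7.46.

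**Figure D3:**
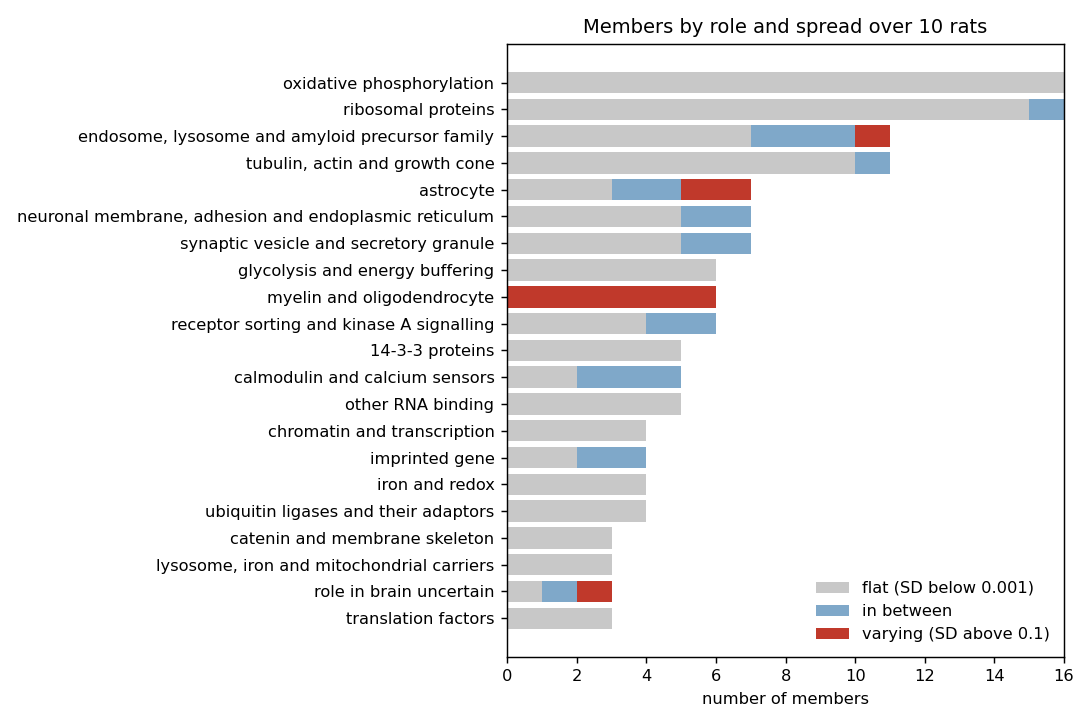
Number of members (horizontal axis) in each role that holds 3 or more, divided by spread over the 10 rats. All 6 genes of the myelin and oligodendrocyte role varied, while all 16 oxidative phosphorylation genes and 15 of 16 ribosomal protein genes were flat; roles outside the function lists were assigned after the values were seen.

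The 16 ribosomal members lay between 11.93 and 12.60, and 15 of them were flat. Rps29 and Rps23, both of the small subunit, led with 12.60 and 12.55. Rpl11, of the large subunit, was the exception to flatness with an SD of 0.01. The translation factors Eif4a2, an RNA helicase of initiation, and Eef1a1, which brings aminoacyl-tRNA to the ribosome, stood at 12.55 and 12.34. Ribosomal protein genes of mammals are known for starting transcription inside a run of pyrimidines, and the start region was therefore searched in the RefSeq promoter windows (GRCr8, 250 bases before to 50 after the start), which were at hand for 128 of the 150 members. The letters TCTTT or CTTTC, which can overlap as TCTTTC, were sought on the strand of the gene only, within 15 bases of the start. They were found in 6 of 15 ribosomal members with a window (40%), in 8.59% of the 128 members, in 5.62% of 11694 measured genes and in 7% of 27457 genes with a window. Besides those shown, Rpl13a and Rpl23 held them. A run of pyrimidines without these letters was not counted, so the shares are not shares of genes that start inside such a run. The stretches from 25 bases before to 20 after the start are given, with the searched letters in capitals. They cover 4 ribosomal members that held the letters and Rpl34, which did not. The start of Rpl34 also lies within a run of pyrimidines, but one without these letters.
Rps23 (chr2:23814492-23814536, plus strand): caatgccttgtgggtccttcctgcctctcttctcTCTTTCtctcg
Rpl27a (chr1:172974548-172974592, plus strand): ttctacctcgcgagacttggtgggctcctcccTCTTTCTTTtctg
Rpl19 (chr10:83519039-83519083, plus strand): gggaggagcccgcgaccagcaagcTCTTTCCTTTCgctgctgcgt
Rpl35 (chr3:43165902-43165946, minus strand): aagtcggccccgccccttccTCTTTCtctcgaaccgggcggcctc
Rpl34 (chr2:221962264-221962308, minus strand): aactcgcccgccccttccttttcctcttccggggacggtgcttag

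The 16 oxidative phosphorylation members lay between 11.92 and 12.46 and all were flat. Cox8a and Cox6c, nuclear-encoded subunits of the same cytochrome oxidase as COX1 and COX2, led with 12.46 and 12.43. The group also held the mitochondrial ADP/ATP carriers Slc25a4 and Slc25a5, at 12.40 and 12.05, and 5 genes of the ATP synthase, from Atp5mc3 at 12.41 to Atp5pb at 11.92. None of the 13 with a promoter window held the pyrimidine letters near the start.

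Some gene families were followed gene by gene. The 14-3-3 proteins, adaptors that bind phosphorylated partners, had 5 of 7 listed genes among the members: Ywhag (12.61), Ywhaq (12.59), Ywhab (12.56), Ywhah (12.55) and Ywhaz (12.19), with Ywhae outside at 11.71. The stathmins, which bind tubulin dimers, gave Stmn3 at 12.39 and Stmn1 at 12.29, while Stmn2 (11.86) and Stmn4 (11.06) were outside. Among 10 tubulin genes read by a probe set of their own, Tubb2a at 12.77 and Tubb4b at 12.23 were members and Tubb5 followed at 11.48. Calm2, at 12.85, was the calmodulin gene among them. All these family members were flat. Closely related genes share sequence, and 38 probe sets above the limit name several genes and could not enter, among them one naming Tuba1a, Tuba1b and Tuba1c at 13.11 and one naming Hspa8 with a related locus at 13.18.

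Markers of cell types were unevenly represented. Astrocyte markers gave 10 of 19 measured genes, neuron markers 6 of 20, oligodendrocyte and myelin markers 5 of 21 and erythrocyte markers 1 of 5. Microglia, endothelium, mural cells, ependyma and tanycytes, leptomeninges, choroid plexus, anterior pituitary, thalamus, cortex and hippocampus, and striatum gave none. Apart from the dropped genes, the highest marker of these 10 lists was at 11.32. The neuronal members were Ndrg4 (12.71), Rtn1, a reticulon of the endoplasmic reticulum (12.64), Snap25, a fusion protein of synaptic vesicles (12.58), Stmn3, Gap43, a growth cone protein (12.29), and Map1b, a microtubule-binding protein of axons (12.13). All 6 were flat. Of the 10 astrocyte members 5 were flat, 3 were in between (Apoe, the lipid carrier, with an SD of 0.04, the calcium-binding S100b with 0.06 and clusterin, Clu, with 0.07) and Ndrg2 and Aqp4 varied. All 5 oligodendrocyte members varied: Mbp, Mobp, Cldn11, Cnp and Mal.

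The myelin members moved together over the rats. Mbp read 13.76 in Chow 1, 13.90 in Chow 2, 13.80 in Chow 3, 13.91 in Chow 4 and 13.65 in Chow 5, and 13.69, 13.69, 13.85, 13.96 and 13.80 in Powder 1 to Powder 5. Its groups overlapped fully, with the lowest value in Chow 5 and the highest in Powder 4. Mobp read 12.97, 13.21, 13.01, 13.19 and 12.85 in the chow rats and 12.95, 12.99, 13.11, 13.11 and 13.12 in the powder rats. Cldn11, the claudin that seals the layers of the sheath, read 12.60, 12.97, 12.69, 12.95 and 12.54 in the chow rats and 12.58, 12.61, 12.91, 12.67 and 12.88 in the powder rats. In both genes Chow 2 was highest, Chow 4 second and Chow 5 lowest. Cnp, a phosphodiesterase of non-compact myelin, read 12.35, 12.60, 12.42, 12.64 and 12.30 in the chow rats and 12.31, 12.37, 12.53, 12.52 and 12.44 in the powder rats. Mal, a proteolipid of the sheath, read 12.07, 12.42, 12.11, 12.40 and 11.91 in the chow rats and 11.99, 11.98, 12.20, 12.21 and 12.20 in the powder rats. Chow 5 was the lowest rat for all 5 of these genes.

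From the lowest to the highest rat the 5 genes spanned 0.31 (Mbp) to 0.51 (Mal) log2 units, or 1.24-fold to 1.43-fold. Averaged over the 5 genes as deviations from each gene's mean, Chow 2 and Chow 4 stood at 0.18 each, Powder 3 at 0.08, Powder 4 and Powder 5 at 0.06 and 0.05, Chow 3 at -0.03, Chow 1 at -0.09, Powder 2 at -0.11, Powder 1 at -0.13 and Chow 5 at -0.19. The C group averaged 0.01 ± 0.17 (SD, n = 5) and the P group -0.01 ± 0.10 (SD, n = 5), so both diets held rats of high and of low myelin signal. The members were picked for their level and the varying ones for their spread, and neither step used the order of the rats.

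Apod, which encodes a lipid-binding lipocalin and was placed with the myelin genes after its values were seen, had the largest SD of all members, 0.21. It read 11.89, 12.29, 11.87, 12.21 and 11.72 in the chow rats and 11.71, 11.97, 12.21, 12.20 and 11.97 in the powder rats. Chow 2 was again highest, and Chow 5 and Powder 1 were low.

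Probe sets outside the selection showed the same order. Of 16 oligodendrocyte markers that were not members, 14 (87.5%) varied, against 4.48% of all probe sets. In all 14 of them, among them the myelin glycoproteins Mag and Mog, the enzymes Ugt8, Fa2h and Aspa and the transcription factor Sox10, Chow 2 and Chow 4 were the 2 highest rats, Powder 1 and Powder 2 lay below the gene's mean, and Chow 5 was lowest in 11. Their mean deviation was 0.22 in Chow 2, 0.24 in Chow 4, -0.25 in Chow 5 and -0.16 in Powder 1, with a range per gene of 0.38 to 0.67. Further probe sets of Mbp, Mobp, Cldn11 and Cnp that varied, 5 in all, also had Chow 2 and Chow 4 as the highest rats. Probe sets with an SD just under 0.1 did not all give this order. Another probe set of Mbp (10.58, SD 0.09) was highest in Chow 2, second in Powder 4 and lowest in Chow 1. The marker Qdpr (10.66, SD 0.08) was highest in Chow 4, second in Powder 4 and lowest in Chow 1, while Olig1 (11.54, SD 0.08) had Chow 2 and Chow 4 highest. For Cldn11 this further probe set had a signal of 9.20 and spanned 0.92, more than the 0.43 of the probe set that made it a member. A probe set naming Tf, transferrin, together with Srprb had a mean of 11.95 and its lowest and highest values in Chow 5 and Chow 4.

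**Figure D4:**
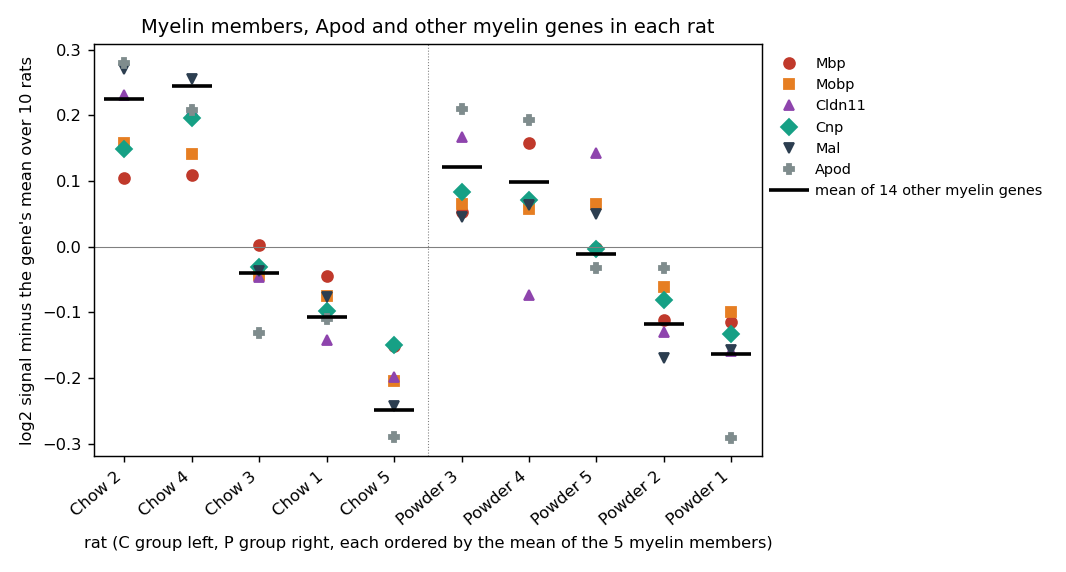
Log2 signal minus the gene's mean over 10 rats (vertical axis) for 5 myelin members, Apod and the mean of 14 other varying myelin genes (black bars) in each rat, the C group left and the P group right, each ordered by the mean of the 5 myelin members. Chow 2 and Chow 4 stand highest and Chow 5, Powder 1 and Powder 2 low in nearly every gene.

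Other lists of cell type markers were followed over the same rats. Scored as the mean deviation of their varying genes, 14 leptomeningeal markers stood at 0.82 in Chow 1, 0.67 in Chow 4 and -0.71 in Powder 1. Only 2 of 8 anterior pituitary and pars tuberalis markers varied. Those 2 averaged 2.11 in Chow 4, 0.95 in Chow 5 and between -0.47 and -0.31 in the other rats. The 5 of 9 cortex and hippocampus markers that varied stood at 0.70 in Chow 1. Only 4 of 20 neuron markers varied, so their score does not stand for the list. These 4 ranged from -0.14 in Chow 5 to 0.13 in Powder 5. They averaged -0.05 ± 0.05 over the chow rats and 0.05 ± 0.06 over the powder rats (SD, n = 5 each). The 5 of 12 microglial markers that varied stood at -0.38 in Chow 2 and between -0.02 and 0.11 in the other rats. Chow 4, high in myelin, was thus also high in leptomeningeal markers and in the 2 varying pituitary and pars tuberalis markers. Chow 2, as high in myelin, was not: it stood at -0.20 and -0.34. The part of these tissues in the spread of the members was not tested.

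To show where the myelin members begin, the stretches from 60 bases before to 10 after the start are given for 5 of these genes, whose signals move together. GGGCGG and its complement CCGCCC (the GC box, sought on both strands) and TATAAA (the TATA box, sought on the strand of the gene in the 50 bases before the start) are in capitals.
Mobp (chr8:128747172-128747241, plus strand): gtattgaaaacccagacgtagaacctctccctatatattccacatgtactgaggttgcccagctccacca
Cldn11 (chr2:114149530-114149599, minus strand): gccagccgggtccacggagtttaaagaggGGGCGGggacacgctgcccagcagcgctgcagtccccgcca
Cnp (chr10:86011444-86011513, plus strand): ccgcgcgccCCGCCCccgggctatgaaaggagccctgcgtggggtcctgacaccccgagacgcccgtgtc
Mal (chr3:135341414-135341483, minus strand): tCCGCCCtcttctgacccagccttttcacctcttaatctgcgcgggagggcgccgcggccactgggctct
Apod (chr11:82936160-82936229, plus strand): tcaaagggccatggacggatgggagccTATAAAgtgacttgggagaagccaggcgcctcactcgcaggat

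Over whole windows, the GC box was in 4 of 6 myelin and oligodendrocyte members (66.7%), in 71.1% of all 128 members, in 58.6% of measured genes and in 36% of genes with a window. The TATA box was in 1 of these 6, namely Apod, in 8.59% of members and in 2.75% of measured genes. CCAAT, on either strand, was in 41.4% of members and in 38.6% of measured genes. The GC content of the windows had a median of 60.2% in the members and 60% in the measured genes. These counts describe letters in the windows and were not tested.

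Ndrg2, an astrocyte gene of the N-myc downstream regulated family, varied in another way. It read 12.72, 12.74, 12.64, 12.98 and 12.76 in the chow rats and 12.72, 12.76, 12.73, 13.01 and 12.76 in the powder rats. Chow 4 and Powder 4 stood 0.20 and 0.22 above the gene's mean, and every other rat lay below it.

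Serinc1, a membrane protein that carries serine into lipid synthesis, read 11.97, 12.12, 11.95, 11.86 and 11.99 in the chow rats and 12.08, 12.10, 11.85, 11.78 and 12.09 in the powder rats. It was lowest in Powder 4, with Powder 3 and Chow 4 also low.

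Between the diets, few members differed. Rank products, which rank the 25 differences between each chow rat and each powder rat over the 31042 probe sets, called 2 members higher and 1 lower in the C group at a false discovery rate (FDR) below 0.05, or 1.33% and 0.667% of 150. Over all probe sets 0.96% (298) were called higher and 0.802% (249) lower, so the shares of the members were near the background. The FDR of rank products comes from permuting probe sets within each array, and the 25 differences share rats. It therefore does not measure the spread between rats. Limma, which takes the spread of each probe set into account, called 0 members and 0% of all probe sets. Its smallest adjusted p among members was 1.0, and 3 members (2%) and 1100 probe sets (3.54%) had an unadjusted p under 0.05. The median difference of the members was close to 0, and the largest of any flat member was below 0.001.

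Hbb, a beta globin carried by red blood cells, read 12.48, 12.44, 12.68, 12.30 and 12.37 in the chow rats and 12.31, 12.47, 12.18, 12.30 and 12.36 in the powder rats. Chow 3 was the highest rat and Powder 3 the lowest, and the ranges overlapped, with 4 of 5 C rats above the mean of the P group. The C group was higher by 0.13 (standard error, SE, of 0.08) with a rank product FDR of 0.0162. The exact two-sided permutation test over the rats gave p = 0.143 and limma an adjusted p of 1.0. Of the 10 analyses leaving out a single rat, 7 kept the call. It was lost without Chow 1 (difference 0.12), without Chow 3 (0.07) and without Powder 3 (0.09). Alpha globin, read by 3 probe sets that name both Hba-a1 and Hba-a2 at 12.97, 12.92 and 12.18, had the same highest and lowest rat. The C group was higher in these by 0.11, 0.08 and 0.11, with rank product FDRs of 0.00875, 0.0472 and 0.012. Globin genes are close copies, and a probe set can read several of them. The amount of blood left in each sample was not measured apart from these genes.

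Aqp4, the water channel of astrocyte endfeet, read 12.54, 12.54, 12.31, 12.29 and 12.43 in the chow rats and 12.40, 12.38, 12.30, 12.17 and 12.41 in the powder rats. Chow 1 and Chow 2 were highest and Powder 4 was lowest, and the groups overlapped. The C group was higher by 0.09 (SE 0.07), with a rank product FDR of 0.0411 and an exact permutation p of 0.206. The call held in 5 of 10 analyses leaving out a rat and was lost without Chow 1, Chow 2, Chow 5, Powder 3 or Powder 4, where the differences were 0.06, 0.06, 0.09, 0.08 and 0.05. A further probe set of Aqp4 that varied had a difference of 0.04. The 5 of 19 astrocyte markers that varied together averaged 0.03 ± 0.08 in the chow rats and -0.03 ± 0.05 in the powder rats (SD, n = 5 each). Aqp4 itself and Ndrg2 are among these 5, so the average partly repeats the Aqp4 difference.

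Spetex2l2, a gene of the rat Spetex family whose role in the brain is uncertain, read 12.16, 12.37, 12.22, 12.10 and 12.13 in the chow rats and 12.31, 12.24, 12.14, 12.21 and 12.41 in the powder rats. Chow 4 was lowest, Powder 5 was highest and the groups overlapped. The C group was lower by a difference of -0.06 (SE 0.06), with a rank product FDR of 0.0438 and an exact permutation p of 0.341. The call held in 3 of 10 analyses leaving out a rat, namely those without Chow 2, Chow 3 or Powder 3. Across the others the difference ranged from -0.08 to -0.03.

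**Figure D5:**
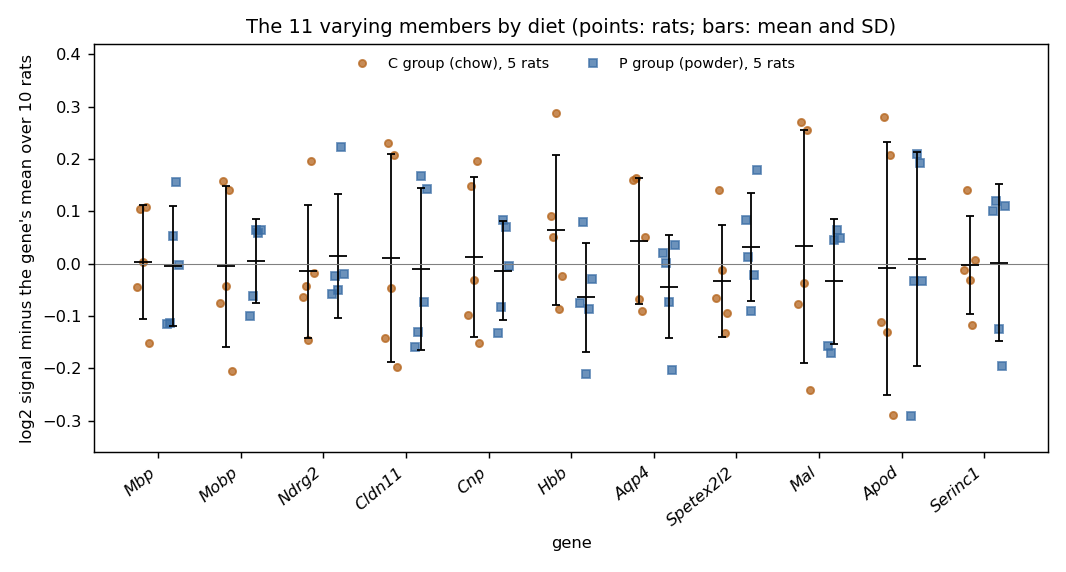
Log2 signal minus the gene's mean over 10 rats (vertical axis) for the 11 varying members, with 1 point per rat for the C group (orange) and the P group (blue) and bars for the mean and SD of each group. In every gene the groups overlap; Hbb and Aqp4 have the higher mean in the chow rats and Spetex2l2 the lower.

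None of the myelin members was called. Their differences between C and P ranged from -0.01 (Mobp) to 0.07 (Mal, SE 0.11, exact permutation p = 0.556), and Apod had -0.02 (SE 0.14, exact permutation p = 0.849). When each rat was left out in turn, Mal ranged from 0.01 to 0.14 and Apod from -0.09 to 0.05, and Mbp (-0.02 to 0.05), Mobp (-0.05 to 0.04), Cldn11 (-0.03 to 0.07) and Cnp (-0.02 to 0.07) changed sign. Apod was called lower in the C group without Chow 2, at -0.09, and the other 5 genes were called in none of these analyses. Ndrg2 differed by -0.03 (SE 0.08) and Serinc1 by 0.00 (SE 0.08), and neither was called.

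A flat member can have a further probe set that varies. Of 39 flat members with further probe sets, 4 had one that varied: Gnas, Bcat1, Map1b and Sptbn1. Among the 84 further probe sets, rank products called 1 higher (1.19%) and 3 lower (3.57%) in the C group, beside 0.96% and 0.802% of all probe sets, and limma called 0. Those called belong to Gnas and Bcat1, which were flat members, and to Cldn11 and Apeg3, which were not. Each of them had an SD above 0.1, and the share called among varying probe sets alone was not compared. The clearest was the second probe set of Gnas, singled out after its values were seen. The Gnas locus makes several transcripts from alternative first exons, and which of them each probe set reads is not given in the sources used here. While the member probe set stayed at 13.07 in every rat, this one read 11.15, 11.37, 11.39, 11.33 and 11.40 in the chow rats and 11.56, 11.46, 11.43, 11.43 and 11.45 in the powder rats. All 5 C rats lay below all 5 P rats. The C group averaged 11.33 ± 0.10 and the P group 11.47 ± 0.06 (SD, n = 5 each), a difference of -0.14 (SE 0.05) with a rank product FDR of 0.000714. The exact two-sided permutation p was 0.00794, the smallest that 5 against 5 rats can give, so it restates the full separation of the groups. Limma gave an unadjusted p of 0.0261 and an adjusted p of 1.0. As the probe set was picked among 84 for its values, the unadjusted p-values are a description and no independent support. The call held in all 10 analyses leaving out a rat, with a highest FDR of 0.0141. Without Chow 1 and Chow 4 together it held with a smaller difference of -0.08. It was lost when the ranking was confined to probe sets with an SD above 0.1, where the FDR was 1.16. The other further probe set of Gnas, of lower signal, had a difference of -0.04.

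A further probe set of Bcat1, a branched-chain amino acid transaminase, had 10.29 ± 0.30 in the chow rats and 10.46 ± 0.21 in the powder rats (SD, n = 5 each), with an FDR of 0.00537 but an exact permutation p of 0.357. One of Apeg3, the antisense partner of an imprinted zinc finger gene, had 8.09 ± 0.13 and 8.19 ± 0.10 (FDR 0.0202, exact permutation p = 0.222). The further probe set of Cldn11 was called higher (FDR 0.0182) with a difference of 0.06, an exact permutation p of 0.865 and values in the C group from 8.84 to 9.69, wider than the difference many times over.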

How the data were processed

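Total RNA of 10 hypothalami was hybridized to Rat Genome 230 arrays. The authors summarized the scans by factor analysis for robust microarray summarization (FARMS) in R, and the deposited values are log2 signals for 31099 probe sets, used as they are. An array has no read depth, and precision rests on the number of rats. After 57 control probe sets were left out, 20826 of 31042 named a single gene, 436 several and 9780 none; names are those of the platform annotation. Groups came from the sample labels, and 0 columns were left unmapped.

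Rank products (25 pairs, 100 permutations, FDR below 0.05 in each direction, Python 3.11.15, numpy 2.4.6, pandas 2.3.3) and limma 3.58.1 (R 4.3.3, Benjamini-Hochberg) were fitted on all 31042 probe sets, and exact permutation tests (scipy 1.17.1) used the rats. Both fits were run on simulated data in which every probe set had the same spread. The spread of the measured probe sets differs widely, so that run does not show how the fits behave here. Drawings were made with matplotlib 3.10.9. Differences are C minus P on the log2 scale with the SE of limma. An SD above 0.1 counted as varying and one below 0.001 as flat.

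Named were the 10 members of highest mean and of largest SD, called members, the 2 highest members of each list with 3 or more, the calmodulin, tubulin, 14-3-3 and stathmin families and 3 genes either side of the limit. Members and lists were chosen with earlier results of these data known, and roles outside the function lists and the imprinted genes after the values were seen. Sequences are from RefSeq promoter windows (GRCr8), matched by gene identifier; other genes in the text are additions chosen after seeing values. Alternatives were other normalizations, filters, thresholds and rankings, a replicate block and leaving out rats.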

Additional observations from a re-analysis of the deposited data

Results flagged for a closer look

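In Ndrg2, Powder 4 had a log2 signal of 13.01, while the other 4 rats of the P group lay between 12.72 and 12.76. The gap to the nearest rat was 86.3% of the whole range of the group, beyond the limit of Dixon's test for 5 rats. Chance passes that limit in about 1 of 20 groups, and 26 groups were examined, with 1 found.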

How the results depend on the processing

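Calls between the diets depended on the rats and settings used. The members called higher in the C group numbered 2, and 0 to 2 when each rat was left out in turn; those called lower numbered 1, and 0 to 3. Without Chow 1, and without Chow 1 and Chow 4 together, 0 were called in either direction, and without Powder 3 none was called higher. No member was called in either direction (0 and 0) with the ranking confined to probe sets with an SD above 0.1, at a threshold of 0.01, or by limma. Quantile normalization, and a filter at the median level, left 1 higher (Hbb) and 0 lower. With the replicate number as a block, 2 were higher (Pcp4 and Aqp4) and 1 lower (Map2), and limma with the block called 0. The numbers did not pair the rats: 2 of 5 same-numbered pairs correlated over 0.1 (-0.35 to 0.26), and 0 of 5 C rats correlated best with their own number. Limma called 0 members in all alternatives run. Varying members numbered 11, and 8 to 11 when rats were left out. Ribosomal and oxidative phosphorylation members, 16 each, became 25 and 25 when a gene's probe sets were averaged, with 106 of 150 members shared, and 10 and 8 among the highest 100 genes. Leaving out Chow 1 and Chow 4 for single members and for the count of varying members, and all alternatives for the further Gnas probe set, were chosen after seeing the data. The cause of these changes was not tested, except that fewer genes or rats enter some of them by construction.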

Other observations

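Several genes listed as imprinted, where at least some transcripts come from 1 parental allele, were among the genes of high signal. Which allele was expressed here was not examined. Of 25 genes on a list written after the values were seen, 19 were measured and 6 were members: Gnas (13.07), Nap1l5 (12.85), Apeg3 (12.40), Ndn (12.28), Meg3 (11.95) and Impact (11.91). Nnat, outside the limit, stood at 11.82. The median of the 19, each on its highest probe set, was 9.84. This lay below the limit of the members but above 7.37, the median of all probe sets. The lowest, Peg10, was at 6.77. None of the 6 member probe sets was called between the diets.

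The X chromosome carried 10 of the 147 members with a known chromosome (6.80%), against 3.14% of 14154 genes, among them Tmsb4x, Gprasp1, Gprasp2, Tspan7, Pgk1 and Slc25a5. Chromosome 11 carried 9 (6.12%, against 2.64%), among them App, Sod1 and Gap43. These shares were not tested.

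In all, 230 probe sets lay at or above the level of the last member. Besides 160 that name a single gene, 38 name several and 32 name none. Among the former were ferritin heavy chain Fth1 with a related locus (13.21), cyclophilin Ppia with related loci (13.01) and Hsp90aa1 with a related locus (12.99). Only 1 of the 32 unnamed probe sets varied.

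Myh1, a myosin heavy chain of fast skeletal muscle, was a member at 12.02, while its other 4 probe sets lay between 9.15 and 10.02.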
